A study of Mus musculus with 3 samples.

Results

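The circadian clock genes described here are the core transcription factors and repressors of the mammalian clock and 1 of their direct output genes. They were chosen by gene symbol as Arntl, Clock, Per1, Per2, Per3, Cry1, Cry2, Nr1d1, Nr1d2 and Dbp. All 10 symbols were found, among 55536 annotated genes of which 22028 are protein-coding. Total RNA depleted of ribosomal RNA had been sequenced from the chromatin fraction of primary mouse macrophages derived from bone marrow (strain C57BL/6J). All 3 libraries belonged to 1 condition. The cells had received 100 ng/ml Lipid A, the lipid anchor of bacterial endotoxin and a ligand of TLR4, for 12 h. They were then kept without it for 12 h and exposed again at 100 ng/ml for 10 min. No genetic change is named in the labels, and the age and sex of the animals are not given there. No unstimulated or singly stimulated library, and no series of clock times, was analysed here, so the levels below belong to 1 state at an unknown phase of any rhythm. The labels call the libraries biological replicates with separate biosamples and 1 shared donor identifier. Whether separate animals were used is not stated, so the spread between libraries, on which every p-value here rests, may be partly technical.

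Expected counts on genes summed to 13538605, 19949204 and 18224466 in replicates 1, 2 and 3, and the labelled RNA input was 1 µg, 250 ng and 500 ng. The macrophage identity given in the labels was checked with fixed marker lists. All 10 macrophage genes reached at least 1 TPM (the deposited abundance, per transcript length and with a fixed sum in each library) in every library, and their summed level ranged from 760 to 1051 TPM. Of 38 genes that mark 7 other cell types (T cells, B cells, neutrophils, erythroid cells, fibroblasts, NK cells and mast cells), 1 did so, Alas2 of the erythroid list. Those 38 genes summed to between 12.2 and 18.5 TPM, and 15 of them had no counts in any library. Fewer cells of a type and less RNA per cell cannot be told apart in these bulk libraries.

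The clock is a feedback loop of transcription. Arntl encodes BMAL1, which pairs with CLOCK and activates genes through E-box sequences. Among those genes are the Period and Cryptochrome genes, whose products return to the nucleus and inhibit the pair, and Nr1d1 and Nr1d2, which encode the REV-ERB nuclear receptors. REV-ERB proteins repress Arntl through the elements that ROR receptors use for activation. Dbp, another E-box gene, encodes a transcription factor that acts on D-boxes, among others in Period promoters. In macrophages, BMAL1 and REV-ERBα are known as restraints on inflammatory gene expression. RNA in the chromatin fraction is largely RNA still being made or processed at its gene, so the abundances below are closer to transcription than those of whole-cell messenger RNA.

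The sequence elements of this loop were looked up in RefSeq promoter windows on GRCm38.p6, each running from 250 bases before to 50 after an annotated start, 300 bases in all. The table held 13 such windows for 9 of the 10 genes, with no entry for Per2. Both strands were searched for the E-box CACGTG, the E'-box CACGTT, the D-box TTATGTAA or TTATGCAA, and the ROR element, taken as the hexamer AGGTCA directly after a T, or GGGTCA directly after AAGT or AACT. The forms that begin with AAGT or AACT and end in AGGTCA were also tried and lie within the first. Windows of 6 genes held at least 1 match. The 4 printed here, upstream bases only, carry 7 of the 9 matches and show how the elements are combined in 1 member of each repressor family and in a second Period gene. Each is written 5′ to 3′ on the strand of its gene, with matches in capitals.
Per1 promoter, chr11:69098699-69098947, plus strand: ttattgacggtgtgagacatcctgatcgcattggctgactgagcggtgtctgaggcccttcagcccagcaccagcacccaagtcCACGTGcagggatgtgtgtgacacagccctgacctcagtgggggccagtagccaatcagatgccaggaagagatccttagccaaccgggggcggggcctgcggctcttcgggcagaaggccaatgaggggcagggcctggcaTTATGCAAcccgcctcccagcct
Per3 promoter, chr4:151044666-151044915, minus strand: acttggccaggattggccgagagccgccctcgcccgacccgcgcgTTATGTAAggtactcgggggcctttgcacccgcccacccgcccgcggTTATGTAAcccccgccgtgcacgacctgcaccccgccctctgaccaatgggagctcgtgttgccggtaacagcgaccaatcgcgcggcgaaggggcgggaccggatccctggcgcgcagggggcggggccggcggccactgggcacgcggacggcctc
Cry1 promoter, chr10:85185065-85185304, minus strand: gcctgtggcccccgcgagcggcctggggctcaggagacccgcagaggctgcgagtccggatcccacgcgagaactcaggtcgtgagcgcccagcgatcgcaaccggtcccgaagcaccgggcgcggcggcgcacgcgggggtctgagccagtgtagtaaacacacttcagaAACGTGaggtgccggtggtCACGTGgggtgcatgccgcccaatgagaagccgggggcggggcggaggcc
Nr1d1 promoter, chr11:98775378-98775627, minus strand: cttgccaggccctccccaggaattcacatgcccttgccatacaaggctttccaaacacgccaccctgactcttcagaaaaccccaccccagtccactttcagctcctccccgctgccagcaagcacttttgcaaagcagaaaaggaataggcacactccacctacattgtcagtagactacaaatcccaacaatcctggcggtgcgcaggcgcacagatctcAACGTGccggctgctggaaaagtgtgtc

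The first Per1 window, printed above, held an E-box at −166 and a D-box at −24 from the start. The Per3 window had a pair of D-boxes, at −205 and −158, and no E-box. In the Cry1 window an E'-box at −79 lay close to an E-box at −60. The Nr1d1 window held an E'-box at −28, and that of Cry2, not printed, an E'-box at −166. A ROR element, the hexamer AGGTCA after AAGT, was found at +27 of the second annotated start of Arntl, inside its exon. No match was found in the second window of Per1, the first of Arntl, the 3 windows of Clock or those of Nr1d2 and Dbp. Of the 13 windows of clock genes, 2 held the E-box, 3 the E'-box, 2 the D-box and 1 the ROR element. Among all 32851 promoter windows of the same length, 7.15% held the E-box, 4.68% the E'-box, 1.66% the D-box and 2.73% the ROR element. The share of genes with at least 1 match of any kind was not computed over all promoters. A match is a description of the letters, and the files hold no binding data for these windows.

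Of the 10 genes, 9 reached 1 TPM in all 3 libraries, against 45.6% of protein-coding genes (10050 of 22028). Nr1d1 was the exception, at 0.87 TPM in replicate 1. In a second set of deposited tables, estimated straight from the reads and called read-based below, 9 of 10 passed beside 56.2% of protein-coding genes. The median of log2(TPM + 0.1) over the 10 genes was 2.90 ± 0.08 (SD, n = 3; all errors below are SDs over the 3 libraries). The same median was −0.43 ± 0.13 over all protein-coding genes and 3.60 ± 0.11 over those detected by the same threshold. The clock genes as a list thus stood above the annotated protein-coding genes and below the detected ones.

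**Figure D1:**
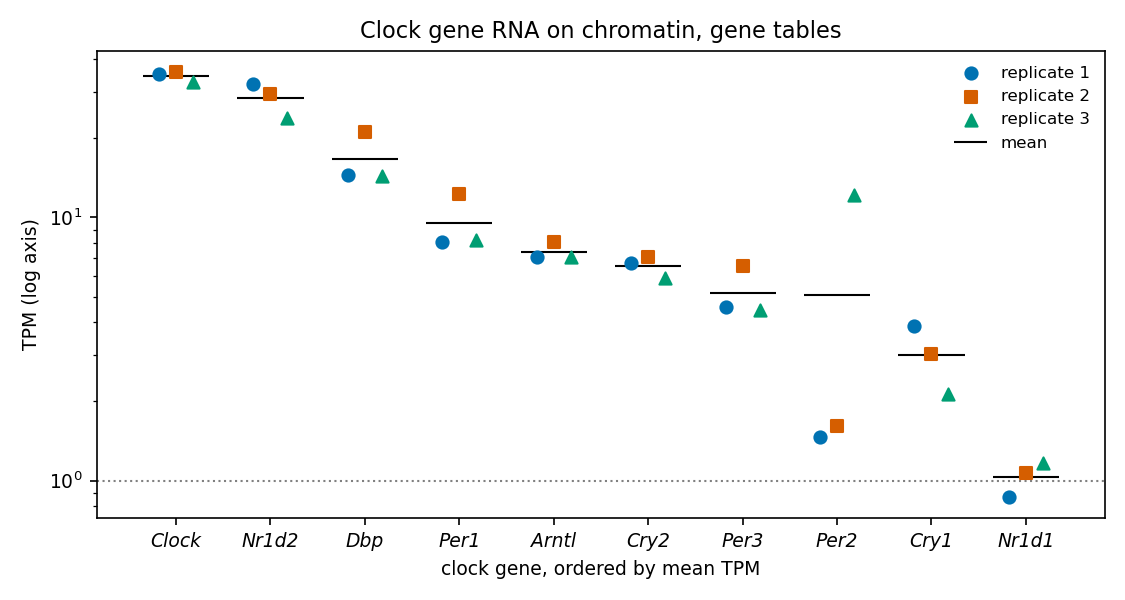
TPM of the 10 clock genes in the gene tables (y axis, log scale) for each of 3 libraries (symbols), with the mean as a bar and a dotted line at 1 TPM. Clock and Nr1d2 are highest, with means of 34.5 and 28.4 TPM, Nr1d1 is lowest, and Per2 stands out in replicate 3.

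Among the activators, Clock was by far the higher. Clock (ENSMUSG00000029238.11, mm10 chromosome 5, 76209868 to 76304792, minus strand) encodes the histone acetyltransferase partner of BMAL1. It stood at 35.13, 35.72 and 32.73 TPM in replicates 1, 2 and 3, from 2098, 2711 and 2370 expected counts. These values lie close together, and their mean of 34.5 ± 1.58 TPM placed Clock at the 90.6th percentile of protein-coding genes. Arntl (ENSMUSG00000055116.8, chromosome 7, 113207465 to 113314126, plus strand) was at 7.10, 8.06 and 7.08 TPM, from 273, 385 and 335 counts. Its mean was 7.41 ± 0.560 TPM, the 70.3rd percentile, and its 3 libraries all lay below those of Clock. Within a library Arntl minus Clock was −2.21 ± 0.08 on the log2(TPM + 0.1) scale, a 4.61-fold lower level in 3 of 3 libraries. The proteins act as a pair, and the RNAs of their genes on chromatin were unequal.

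Per1 was the most abundant of the Period genes, which encode the scaffold of the repressor complex. Per1 (ENSMUSG00000020893.17, chromosome 11, 69095217 to 69109960, plus strand) stood at 8.09, 12.26 and 8.23 TPM, from 367, 667 and 511 counts, with a mean of 9.53 ± 2.37. Replicate 2 was high and the other libraries were close to each other. Per3 (ENSMUSG00000028957.12, chromosome 4, 151003652 to 151044665, minus strand) showed the same order, at 4.56, 6.56 and 4.44 TPM from 318, 574 and 383 counts, with a mean of 5.19 ± 1.19. Per1 exceeded Per3 by 0.86 ± 0.04 on the log2(TPM + 0.1) scale, or 1.82-fold, in 3 of 3 libraries. This was the smallest SD among the 7 pairs compared.

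Per2 (ENSMUSG00000055866.9, chromosome 1, 91415982 to 91459324, minus strand) had a level that rested on 1 short transcript in 1 library. Its gene-table TPM was 1.46, 1.61 and 12.19, a mean of 5.09 ± 6.15, while its expected counts were 109, 152 and 126. Replicate 3 was high in TPM and in the middle in counts. The protein-coding transcript Per2-201, of 5833 bases, was at 1.46, 1.61 and 1.30 TPM. The remainder of replicate 3 was Per2-202, annotated as a processed transcript of 231 bases, with 0, 0 and 6.22 expected counts and 0, 0 and 10.89 TPM. Its effective length, over which the TPM is computed, was 34.75 bases in replicate 3, so few counts made a large TPM. The deposited interval for Per2 in replicate 3 ran from 4.18 to 22.6 TPM. Read-based TPM of Per2 was 1.42, 2.34 and 6.62, again highest in replicate 3. Scaled to library size without length, Per2 was at 7.59, 7.74 and 7.26 CPM (counts relative to the library total, with TMM scaling), among the most even of the 10 genes. Without transcripts of 300 bases or less, a setting chosen after seeing the data, Per2 averaged 1.46 ± 0.155 TPM. Per1 minus Per2 was 1.56 ± 1.85 on the log2(TPM + 0.1) scale, with Per1 higher in 2 of 3 libraries. With the longer transcripts alone it was 2.61 ± 0.23, 6.09-fold, and had the same sign in all 3 libraries.

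**Figure D2:**
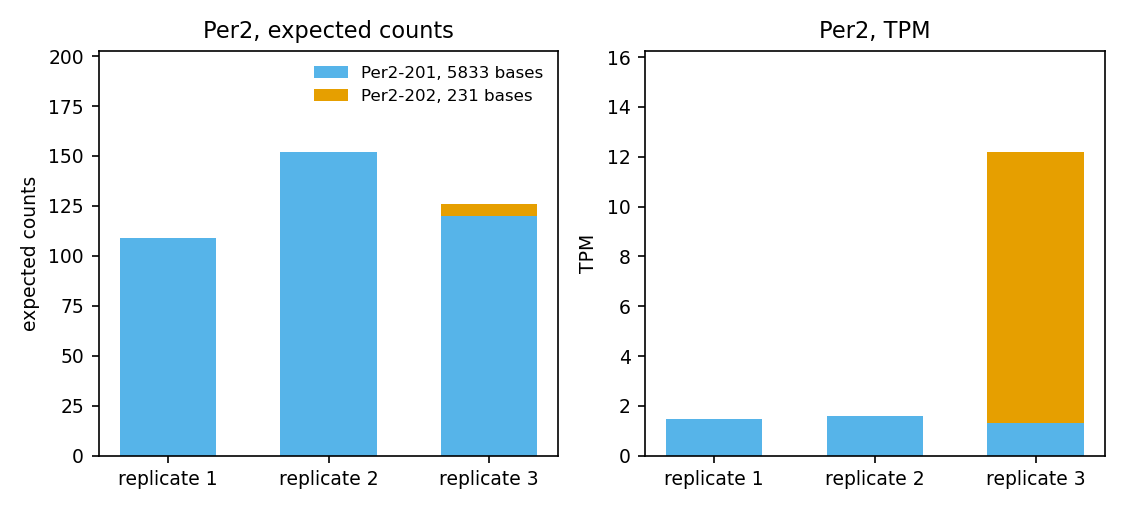
Expected counts (left) and TPM (right) of Per2 in each library, stacked by its annotated transcripts. In replicate 3 the 231-base transcript holds 6.22 of 126 expected counts and 10.89 of 12.19 TPM.

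The order of the Cryptochrome genes, whose products bind and inhibit the CLOCK and BMAL1 pair, depended on the kind of estimate. Cry2 (ENSMUSG00000068742.11, chromosome 2, 92403646 to 92434043, minus strand) was at 6.69, 7.08 and 5.88 TPM from 184, 276 and 183 counts, a mean of 6.55 ± 0.612. Cry1 (ENSMUSG00000020038.10, chromosome 10, 85131700 to 85185064, minus strand) was at 3.88, 3.03 and 2.13 TPM from 67, 102 and 79 counts, a mean of 3.01 ± 0.875. In these values the genes did not overlap, and Cry1 minus Cry2 was −1.13 ± 0.33, a 2.19-fold lower level of Cry1 in 3 of 3 libraries. The same tables also hold a posterior mean TPM, in which the direction was reversed. There Cry1 was at 8.31, 8.65 and 7.85 and Cry2 at 6.74, 7.19 and 6.03, and the difference was 0.31 ± 0.06 with Cry1 higher in 3 of 3 libraries. The deposited intervals of Cry1 were wide, from 2.85 to 16.7, 2.41 to 19.0 and 1.93 to 17.8 TPM in replicates 1, 2 and 3. They held the whole interval of Cry2 in each library, so no order of this pair can be read. In read-based TPM Cry1 minus Cry2 was −1.25 ± 0.10, with Cry1 lower, so the posterior mean alone had the other direction. Part of the Cry1 TPM came from a pair of short retained-intron transcripts of 406 and 506 bases. Its protein-coding transcript Cry1-201 was at 1.57, 2.11 and 1.70 TPM. A further coding transcript, Cry1-203 of 177 bases, had 0 expected counts in every library. Its effective lengths were 16.86, 10.66 and 11.37 bases, and its part in the posterior mean of Cry1 was not tested.

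The REV-ERB genes stood furthest apart. Nr1d2, which encodes REV-ERBβ (ENSMUSG00000021775.11, chromosome 14, 18204054 to 18239127, minus strand), was at 32.14, 29.40 and 23.79 TPM from 903, 1011 and 857 counts. Its mean was 28.4 ± 4.26 TPM, the 88.5th percentile of protein-coding genes. Nr1d1, which encodes REV-ERBα (ENSMUSG00000020889.11, chromosome 11, 98767932 to 98775333, minus strand), was at 0.87, 1.07 and 1.17 TPM from 15.25, 26.31 and 36 counts. Every library of Nr1d1 lay far below every library of Nr1d2, and its mean of 1.04 ± 0.153 TPM was at the 52.5th percentile. Nr1d1 minus Nr1d2 was −4.65 ± 0.41, a 25.1-fold lower level in 3 of 3 libraries, and 21.5-fold in the read-based tables. It was the largest of the 7 differences. Nr1d1 was also 6.64-fold lower than Arntl, the gene its product represses, at −2.73 ± 0.21.

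Dbp (ENSMUSG00000059824.12, chromosome 7, 45705088 to 45710203, plus strand) was the third highest of the 10 genes. It stood at 14.52, 21.18 and 14.41 TPM from 241, 441 and 321 counts, with a mean of 16.7 ± 3.88. As for Per1 and Per3, replicate 2 was high and the other libraries nearly equal. Dbp exceeded Arntl by 1.14 ± 0.21, or 2.20-fold, in 3 of 3 libraries, and by 1.67-fold in the read-based tables.

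In order of mean TPM, each of Clock, Nr1d2, Dbp, Per1 and Arntl lay above the next without overlap of their ranges. The closest of these neighbours were Clock and Nr1d2, which differed by 0.29 ± 0.17 on the log2(TPM + 0.1) scale. Their deposited intervals overlapped in replicate 1, at 30.7 to 34.5 and 26.9 to 32.9 TPM. Those of Per1 and Arntl overlapped in replicates 1 and 3, in replicate 1 at 6.38 to 9.38 and 5.91 to 7.72 TPM. Arntl and Cry2, Cry2 and Per3, Per3 and Per2, and Per2 and Cry1 overlapped, so the order among these neighbours is not resolved by the spread. Cry1 lay above Nr1d1 by 1.42 ± 0.61 without overlap. By posterior mean TPM, Cry1 averaged 8.27 ± 0.401, which placed it above Arntl at 7.08 ± 0.543, and the other genes moved less. The read-based tables gave means from 34.3 TPM for Clock to 1.24 for Nr1d1, with a changed order in the middle: there Clock and Nr1d2 overlapped, as did Dbp at 13.8 and Per1 at 13.3. The ratio of read-based to gene-table means ran from 0.680 for Per2 to 1.61 for Per3 and was above 1 for 7 of 10 genes.

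The 8 genes that the loop drives through E-boxes were compared as a set with the activators. The median log2(TPM + 0.1) of the Period, Cryptochrome and Nr1d genes and Dbp minus that of Arntl and Clock was −1.50, −1.31 and −1.12 in replicates 1, 2 and 3. The mean was −1.31 ± 0.19, with the median of the driven genes lower in every library. The activator median is the midpoint of Clock and Arntl, and by mean TPM Nr1d2, Dbp and Per1 each lay above Arntl. An exact two-sided sign-flip test gave p = 0.25 for this difference, the smallest value that 3 libraries allow. For the 7 pairs the same exact test, without adjustment over the pairs, gave p = 0.25 for 6 and p = 0.5 for Per1 minus Per2. No such difference can pass 0.05 in this design, so the sizes and SDs are what can be read.

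None of the 10 genes passed the test for variation between libraries. In edgeR's goodness-of-fit test of 1 common level, 166 of 14789 genes passed an adjusted p of 0.05, which is 1.12%. Of the 10 clock genes 0 passed, with 0 at an unadjusted p under 0.05, and DESeq2's dispersion outliers numbered 61 genes with 0 clock genes. The smallest edgeR p belonged to Nr1d1, 0.243 (adjusted p 1.00). Nr1d1 was at 1.05, 1.32 and 2.07 CPM, lowest in replicate 1 and highest in replicate 3. At the other end, Arntl was at 19.0, 19.6 and 19.3 CPM and Clock at 146, 138 and 137. In simulated counts for this comparison the test recovered 34 of 193 genes changed 2-fold in 1 library (17.6%) and 154 of 175 changed 4-fold (88.0%). Differences near 2-fold in a single library were therefore mostly not detectable.

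Per1, Per3 and Dbp shared a higher value in replicate 2, a pattern noticed after the values were seen. The log2 excess of replicate 2 over the mean of replicates 1 and 3 was 0.58 for Per1, 0.53 for Per3 and 0.55 for Dbp in TPM. The same excess had a median of 0.15 over the 10050 detected protein-coding genes, so the TPM of this class was by its median shifted up in replicate 2. In TMM-scaled CPM the excesses were 0.31, 0.40 and 0.35 against a median of 0.02. Read-based TPM gave 0.13, 0.18 and 0.26 against −0.03, so the pattern kept its sign and became smaller. Cry2 had excesses of 0.17, 0.27 and 0.16 in the same 3 measures. In read-based TMM-scaled CPM the excess was 0.29 for Per1, 0.19 for Per3, 0.33 for Dbp and 0.32 for Cry2. Per2 and Cry1 were at 0.18 and 0.16 there, so the pattern was not particular to Per1, Per3 and Dbp. By TPM 6 of the 10 clock genes were highest in replicate 2, beside 53.1% of detected protein-coding genes. By TMM-scaled CPM 7 were, beside 30.9%, and by read-based TPM 3, beside 25.4%. By read-based TMM-scaled CPM 6 were, beside 28.5%, with 3 highest in replicate 1 and 1 in replicate 3. Replicate 2 had the lowest RNA input and the highest total count, and their part in the pattern was not tested.

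**Figure D3:**
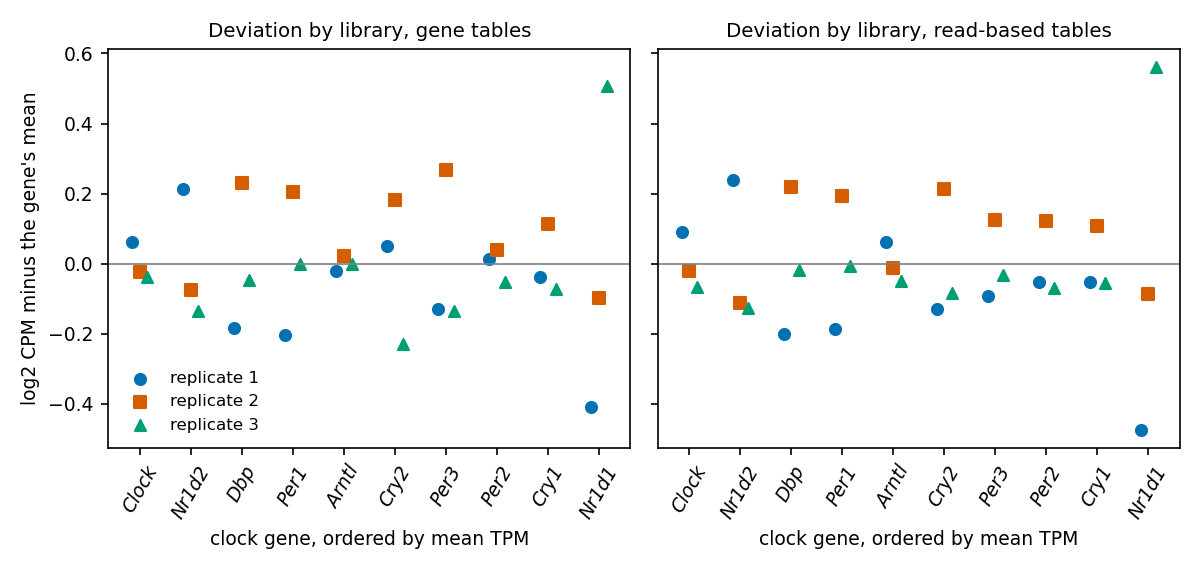
Log2 CPM (TMM-scaled) of each clock gene in each library minus the gene's mean over 3 libraries, in the gene tables (left) and the read-based tables (right). Dbp, Per1, Per2, Per3, Cry1 and Cry2 are highest in replicate 2 in both panels, Nr1d2 is highest in replicate 1 and Nr1d1 in replicate 3.

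The transcripts to which the clock RNA was assigned were often not those that encode protein. Reads were assigned to annotated transcripts only. RNA still being spliced and finished transcripts of these classes therefore cannot be told apart in the shares below. The 10 genes have 44 annotated transcripts, of which 24 are protein-coding, 12 retained-intron, 6 processed transcripts and 2 targets of nonsense-mediated decay. Retained-intron transcripts held 45.8% ± 5.05 of the summed TPM of the 10 genes (49.7%, 47.5% and 40.1% in replicates 1, 2 and 3), against 37.1% ± 0.561 over all protein-coding genes. By expected counts, which are not divided by length, the shares were 24.8% ± 0.747 and 23.7% ± 0.768. In read-based TPM they were 45.4% ± 2.88 and 33.5% ± 0.409. By read-based estimated counts they were 28.6% ± 0.326 and 24.3% ± 0.416. The excess of the clock genes over all protein-coding genes was thus small by expected counts, larger by read-based counts, and largest by TPM.

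The 3 genes of highest TPM had most of it on retained-intron transcripts, while by expected counts this held for Dbp alone of the 3. For Clock the retained-intron share was 51.9% ± 1.60 by TPM and 24.6% ± 0.622 by expected counts, with Clock-203 at 10.97, 12.03 and 11.92 TPM beside the longest coding transcript Clock-205 at 10.85, 10.62 and 9.40. For Nr1d2 it was 62.9% ± 3.35 by TPM and 23.7% ± 1.87 by counts, led by Nr1d2-203, of 687 bases, at 13.57, 12.86 and 8.96 TPM. The coding transcript Nr1d2-201 stood at 11.45, 10.23 and 9.19. For Dbp the share was 77.9%, 66.4% and 56.8% by TPM, and 63.4% ± 11.2 by counts. The coding transcript Dbp-201 was at 2.10, 5.24 and 5.07 TPM, low in replicate 1, while the retained-intron transcript Dbp-205 was at 7.36, 8.90 and 6.22. Replicates 2 and 3 were thus close to each other in the coding transcript Dbp-201 and apart in the gene as a whole. In read-based TPM the retained-intron shares were 57.9% ± 2.66 for Clock, 69.6% ± 0.807 for Nr1d2 and 54.8% ± 12.5 for Dbp, which was at 45.1% in replicate 3.

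In the tables of expected counts, Arntl divided its TPM about evenly, with 51.6% ± 4.46 on retained-intron transcripts. It had 55.9% ± 3.36 of its counts there, mainly on Arntl-202 at 2.77, 3.44 and 2.90 TPM. That transcript, of 3995 bases, is longer than the coding ones of Arntl. Per3 had 33.8% ± 1.78 of its TPM and Cry1 36.7% ± 20.5 on this class, and 29.4% ± 1.09 and 5.67% ± 5.84 of their counts. The Cry1 share was 59.6%, 30.4% and 20.2% in the 3 libraries and rested on fewer than 10 expected counts in each library. Per1, Per2, Cry2 and Nr1d1 have no annotated retained-intron transcript. Per1 was mostly protein-coding, at 91.9% ± 4.23 of its TPM, and Per2 had 98.4% ± 2.85 of its counts on the coding transcript. Cry2 and Nr1d1 had 49.7% ± 5.71 and 48.6% ± 15.7 of their TPM on processed transcripts, which encode no protein. By expected counts these shares were 29.4% ± 3.13 and 18.4% ± 9.14, and that of Nr1d1 rested on 4.15, 5 and 3.23 counts.

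**Figure D4:**
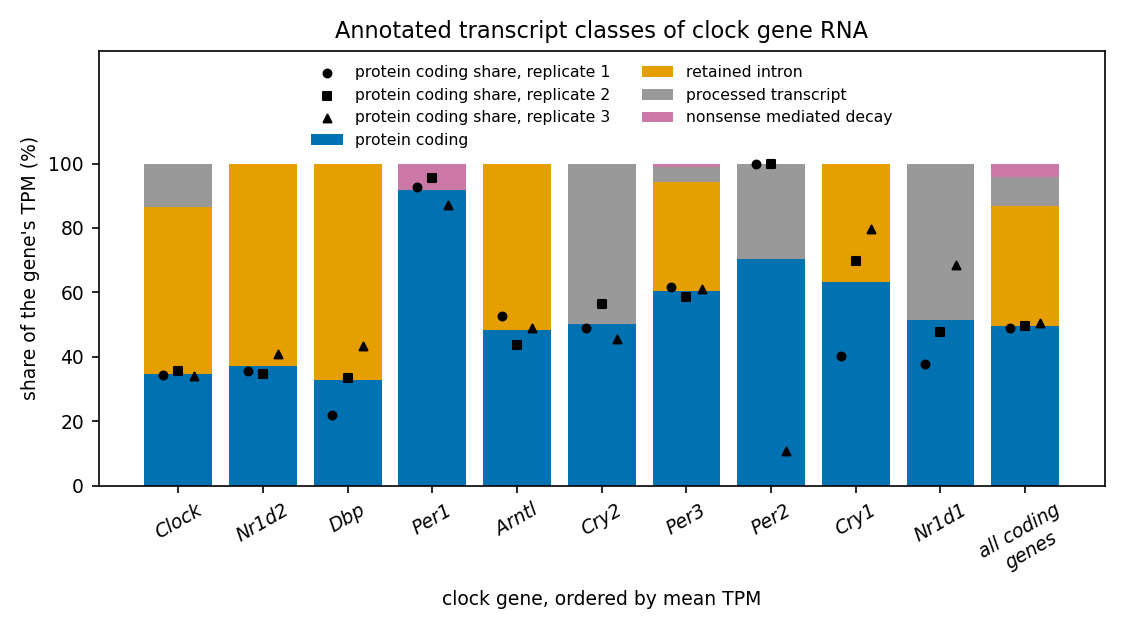
Share of each gene's TPM on transcripts of 4 annotated classes (stacked bars, mean of 3 libraries; symbols show the protein-coding share in each library), with all protein-coding genes at the right. The TPM is that of the tables of expected counts. By the mean, retained-intron transcripts hold over 50% of the TPM of Clock, Nr1d2, Dbp and Arntl. In read-based TPM, not shown, the Arntl share was 39.9%. Per1 has over 80% of its TPM on protein-coding transcripts in each library.

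Some clock genes share ground with other genes, and the treatment of strand in counting is not given in the sources used here. Reads from a gene and an antisense partner may therefore be mixed. Nr1d1 overlaps Thra, a thyroid hormone receptor gene on the other strand, over 263 exonic bases, 8.55% of its exons. Thra was at 5.47, 8.40 and 6.49 TPM, several times the level of Nr1d1 in each library. Dbp overlaps the sphingosine kinase gene Sphk2 on the other strand over 539 bases, 18.0% of its exons, with Sphk2 at 28.4 ± 1.11 TPM. Cry2 shares 295 bases with the antisense D930015M05Rik, at 0.653 ± 0.247 TPM, and Arntl shares 33 with the antisense Gm45355, at 1.05 ± 0.509. Per3 lies within Camta1 on the same strand without shared exonic bases. Camta1 was at 13.4 ± 2.53 TPM, or 11.94, 16.28 and 11.87 in the 3 libraries. Both genes were highest in replicate 2, and the part of Camta1 reads in the level of Per3 was not tested. Gm43658 and Ube2n-ps1 lie within Clock on its strand and share none of its exonic bases. For Per1, Per2, Cry1 and Nr1d2 no overlap with another annotated gene was found.

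Other genes of the clock were taken from 5 lists made by role. Of their 36 genes 28 reached 1 TPM in all 3 libraries, beside 45.6% of protein-coding genes. The same share stands beside the gene-table count of each list below. In edgeR's goodness-of-fit test 0 of the 30 tested passed, beside 1.12% of all genes tested. An unadjusted p under 0.05 was seen for 2 (Bhlhe41 and Timeless), and 0 were DESeq2 dispersion outliers. The list of other activators and ROR receptors was the lowest in the gene tables, where 0 of 5 were detected, and 3 of 5 were detected in the read-based tables. Rora, which activates Arntl through the ROR element, averaged 1.04 ± 0.106 TPM in the gene tables, with 0.96 in replicate 2, and 1.36 ± 0.151 in the read-based ones. Rorb had no expected counts in the gene tables and averaged 1.28 ± 0.231 TPM in the read-based tables. In the gene tables the BMAL1 paralog gene Arntl2 was at 0.947 ± 0.725 TPM and Npas2 at 0.537 ± 0.569. The median log2(TPM + 0.1) of that list in the gene tables was −1.61, against 2.90 for the 10 clock genes.

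In the gene tables, whose values and ranks are given for this list and those that follow, 7 of 9 output regulators were detected, with a list median of 1.75. Nampt, the enzyme gene of the NAD salvage pathway, was highest at 84.5, 50.5 and 50.5 TPM, and Tef, a paralog of Dbp, followed at 29.3, 42.06 and 32.65. Tef, like Dbp, was highest in replicate 2. Hlf, the third member of that family, was last at 0.01 TPM. All 6 kinases that act on clock proteins were detected, with a median of 5.08. Csnk2a1 was at 45.1 ± 3.54 TPM, Gsk3b at 44.6 ± 3.00 and the lowest, Csnk1e, at 10.4 ± 1.09.

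Among genes of ubiquitin ligases, their adaptors and a deubiquitinase 5 of 6 were detected, with a median of 3.98. Usp7, the deubiquitinase gene, was highest at 100.7 ± 19.4 TPM and Fbxl21 was last at 0.283 ± 0.015. All 10 corepressors and complex partners were detected, with a median of 5.45. Sfpq, which binds Period complexes, was at 222 ± 20.6 TPM and Ncor1, the corepressor that REV-ERB proteins recruit, at 211 ± 13.2. The lowest of them, Wdr5, was at 12.7 ± 2.53 TPM, above 7 of the 10 clock genes. The order within these lists changed in read-based TPM. There Wdr5, at 27.0 ± 3.49, was not the lowest partner and Csnk1e, at 17.6 ± 2.91, was not the lowest kinase. Ncor1 had a higher mean there than Sfpq, at 230 ± 43.0 and 207 ± 40.3 TPM.

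**Figure D5:**
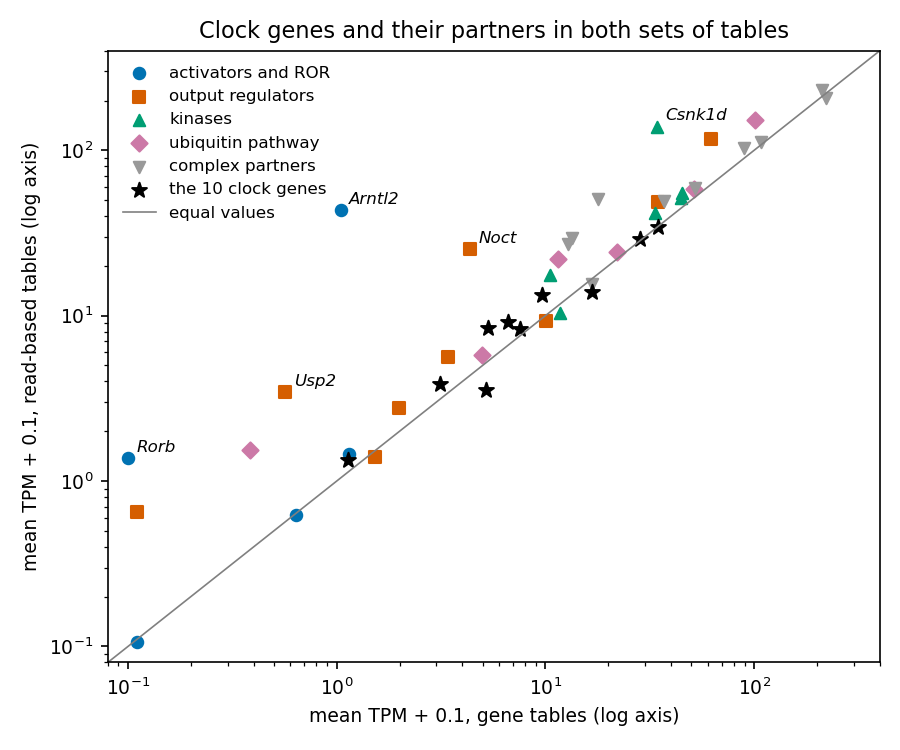
Mean TPM + 0.1 of the 10 clock genes (stars) and 36 genes of 5 wider lists in the gene tables (x axis) and the read-based tables (y axis), both on log axes with a line of equal values. The clock genes lie near the line, with ratios from 0.680 to 1.61, and Arntl2 lies far above it.

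The estimate for Arntl2 depended on the kind of table. It averaged 43.3 ± 3.51 TPM in the read-based tables, above Clock, against 0.947 in the gene tables. Of that, 38.4 ± 3.76 TPM belonged to Arntl2-208, a retained-intron transcript of 907 bases. It had 517, 735 and 660 estimated counts in the read-based tables and 2, 0 and 0 expected counts in the other set. Such a gap was not particular to Arntl2, as 1435 of 12388 protein-coding genes detected in the read-based tables (11.6%) were at least 10-fold higher there. Noct and Csnk1d, named after their values were seen, were at 25.1 and 139 TPM read-based against 4.26 and 34.1.

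The protein-coding genes whose levels were most like those of 3 clock genes were found by Euclidean distance in log2(TPM + 0.1) over the 3 libraries. For Nr1d1 they were Olfm2, Lyrm4 and Itgb3bp at distances of 0.11, 0.12 and 0.12, and 185 genes lay within 0.5. For Arntl they were Camkmt, Rbm10 and Wdr19, each at 0.06, with 741 genes within 0.5. For Per1 they were Rnf157, Plekha3 and Lipe at 0.08, 0.09 and 0.11, with 563 within 0.5. Rnf157, at 7.89, 12.39 and 8.62 TPM, had the same high replicate 2 as Per1. With 3 libraries and this many near genes, the likeness is one of level.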

How the data were processed

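Chromatin RNA of 3 libraries was measured. The authors deposited, per library, a gene table of expected counts and TPM and transcript tables of the same, per the file headers; the notes beside them name alignment against the transcriptome, mm10 and GENCODE M21. They also deposited read-based transcript tables of estimated counts and TPM. The deposited posterior mean TPM and interval bounds are used as given, and the level of the bounds is not stated there. The columns are those that RSEM and kallisto write; aligner, versions and the use of strand: not given in the sources used here. TPM has a fixed sum, so abundant short RNAs lower it for all other genes. Entries that name no gene held 1.39%, 0.288% and 0.283% of expected counts and were left out.

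The members, lists and tests were chosen with earlier results of these data known. Read-based values were summed per gene, and 86 genes absent there were set to 0. Levels use log2(TPM + 0.1), detection 1 TPM in all libraries. Counts were rounded, filtered by filterByExpr, TMM-scaled and fitted in edgeR 4.0.16 (R 4.3.3) with an intercept and a trended dispersion; each gene's deviance was tested, with Benjamini-Hochberg adjustment over all genes tested. The step was tested on simulated data. Further work used Python 3.11.15, numpy 2.4.6 and pandas 2.3.3. For counting error alone, 0 counts in replicate 1, 2 or 3 allow up to 0.222, 0.150 or 0.165 CPM (3 counts). Named beside the 10 genes are the first, second and last gene of each wider list by mean TPM, genes that share exonic bases with a member, and the 3 nearest genes of Nr1d1, Arntl and Per1; all other names were chosen after their values were seen. Values of 2 genes of the wider lists are not reported here. Alternatives were size factors and dispersion outliers from DESeq2 1.42.0, no count filter, protein-coding nuclear genes, read-based tables, rescaled TPM, other pseudocounts and thresholds, means, expected counts for shares, and each replicate left out. Posterior mean TPM, transcripts over 300 bases and the other measures of the replicate 2 pattern were added after seeing the data. Sequences are RefSeq's, build GRCm38.p6.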

Additional observations from a re-analysis of the deposited data

How the results depend on the processing

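Of 178 values recomputed under alternatives, 147 moved by less than their spread, stayed on the same side or within 1.5 times, 30 moved and 1 changed direction. Cry1 minus Cry2, −1.13, was 0.31 by posterior mean TPM, an alternative added after seeing the data. The clock list level of 2.90 became 3.15 in the read-based tables, 4.65 with TPM rescaled to protein-coding genes, 2.99 by posterior mean TPM and 3.06 with a pseudocount of 1. The number of genes that varied between libraries, 166, became 273 in the read-based tables, 61 as DESeq2 dispersion outliers and 56 to 76 with 1 replicate left out, which leaves fewer samples; none of the 10 clock genes was among those called in any of these settings. The retained-intron share of 45.8% became 24.8% by expected counts, which are not divided by length. The median excess of Per1, Per3 and Dbp in replicate 2, 0.55 in TPM, was 0.35 in TMM-scaled CPM, 0.18 in read-based TPM and 0.29 in read-based TMM-scaled CPM, and the cause was not tested. Of 70 recomputed levels of single genes 53 moved by less than 1 SD. Without replicate 3 the mean of Per2 was 1.54 TPM against 5.09, and Per1 minus Per2 ranged from 0.92 to 2.62 with 1 replicate left out. All 10 genes were detected without replicate 1, with rescaled TPM or at 0.5 TPM, and 6 at 5 TPM. Nr1d1 and Cry1 had the fewest counts of the 10 genes. No paired analysis was possible because all 3 libraries belong to 1 group.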
